A study of Caenorhabditis elegans with 2 samples.

Results

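The genes described here are 39 protein-coding genes of Caenorhabditis elegans that encode spliceosome parts and RNA-binding proteins, out of 19973 protein-coding genes on the nuclear chromosomes. The set was defined by the start of the gene name: 7 snr genes, 9 rnp genes, 13 prp genes, 8 rsp genes and 2 hrpf genes, with no gene named hrp. The data are sites of EGL-13, a SoxD-type HMG-box transcription factor, mapped by chromatin immunoprecipitation with an anti-GFP antibody and sequencing. The material was whole hermaphrodite L1 larvae of strain GOU883, whose EGL-13 carries a GFP-FLAG tag at its C terminus, taken 6 h after larvae hatched from bleached embryos were synchronised by starvation. Both libraries, biological replicates 3 and 4 of the labels, belong to 1 group, and no conditions are contrasted. Chromatin came from whole animals of this line, so a site used in few cells and a weaker site in many cells cannot be told apart. Read depth is unknown from the lists used, so each site is given with its values in either replicate.

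Splicing removes introns through small nuclear ribonucleoproteins (snRNPs), each a small RNA with a ring of Sm proteins and its own specific proteins. The snr genes encode the Sm proteins, the prp genes spliceosome factors first known from yeast mutants, the rsp genes SR proteins that bind exons, and the hrpf genes relatives of hnRNP F and H. The rnp genes encode diverse proteins with RNA recognition motifs. In worms many transcripts also receive a spliced leader at their 5′ end, so an annotated 5′ end is often the trans-splice site and not the start of transcription.

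A site was the summit of a region in the authors' optimal list, which is what remained after a reproducibility threshold. Its regions are the 2294 strongest of the list pooled over both replicates, so a single site need not be strong in each replicate. A site counted for a gene when it lay from 1000 bp upstream to 200 bp downstream of the 5′ end of a transcript. Of the 39 genes, 14 (35.9%) had such a site, against 8.42% of all protein-coding genes. The rsp genes had sites in 5 of 8 cases (62.5%), the snr genes in 3 of 7 (42.9%), the prp genes in 4 of 13 (30.8%), the hrpf genes in 1 of 2 and the rnp genes in 1 of 9 (11.1%). The share of the rnp genes lies close to that of all genes. The snr, rsp and prp shares lie above it, but the genes were chosen with earlier results of these data known, so no test of the list is given. No summit lay in a gene body outside the promoter windows for any of the 39 genes, against 1.79% of all genes, and a count of 0 in 39 allows a share of up to 7.69%. When each site went to the nearest 5′ end only, 9 of the 39 genes (23.1%) kept a site, against 9.52% of all genes, and when a site counted only for the nearest or sole gene with it in the window, 9 did, against 6.18%. By chromosome, sites lay at 0 of 8 members on I, 4 of 8 on II, 5 of 11 on III, 4 of 6 on IV, 1 of 5 on V and 0 of 1 on X, numbers too small to compare. In the same order, 10.8%, 8.35%, 12.5%, 8.35%, 5.19% and 7.98% of all genes had a site.

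**Figure D1:**
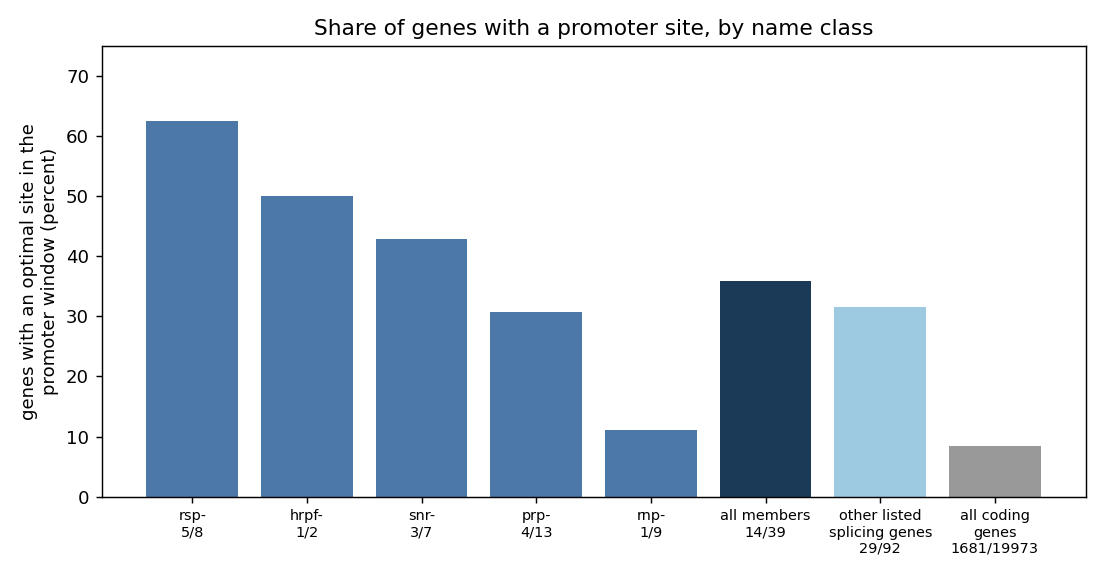
Bars give the percent of genes with an optimal site in the promoter window, with counts below each bar, for the name classes, all 39 members, 92 other listed splicing genes and all protein-coding genes. The rsp class stands highest at 62.5% and the rnp class at 11.1% is close to the 8.42% of all genes.

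The 14 genes shared 14 distinct sites, because rsp-1 and rsp-2 lay on either side of the same summit and snr-4 had a pair of summits. All 14 summits lay between protein-coding genes and upstream of the 5′ end, at distances from 128 to 640 bp with a median of 288 bp. In strength the sites were ordinary. Their signal values, a strength measure of the authors' peak caller whose scale the sources do not state, ran from 70.7 to 314 with a median of 103, against a median of 102 for all 2294 optimal sites and 110 for the 1303 sites in promoter windows. By rank 7 of the 14 fell in the stronger 50% of the list. The G and C content of the windows from 50 bp before to 50 bp after the summits ran from 25.7% to 56.4%, against a median of 46.5% at all optimal sites.

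Sequences around the summits are shown for the 5 strongest sites and for 5 more that share a short sequence with them or stand apart from them. Each is written 5′ to 3′ on the strand of the named gene (of rsp-1 for the shared site), from the RefSeq copy of WBcel235 (ce11), 50 bp to each side of the summit. The prp-19 window is shorter because it ends before the 5′ UTR of K10D2.5. Capitals mark the octamer CGCNCCAC described next. They also mark GACGCA where it reads TGCGTC on the printed strand, and the palindrome CAGCTG. The capitals of prp-19 mark CCGCCC as well, and those of prp-21 mark AACAAT, which reads ATTGTT on the printed strand.
snr-4 (chrV:11980035-11980135): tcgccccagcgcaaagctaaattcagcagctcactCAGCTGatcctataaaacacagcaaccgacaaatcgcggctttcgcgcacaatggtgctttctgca
prp-19 (chrIII:5172635-5172719): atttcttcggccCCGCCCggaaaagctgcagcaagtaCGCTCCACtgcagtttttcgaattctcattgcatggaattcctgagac
prp-40 (chrIII:9521864-9521964): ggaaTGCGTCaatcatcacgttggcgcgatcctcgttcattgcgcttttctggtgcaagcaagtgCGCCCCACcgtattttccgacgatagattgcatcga
rsp-6 (chrIV:7791307-7791407): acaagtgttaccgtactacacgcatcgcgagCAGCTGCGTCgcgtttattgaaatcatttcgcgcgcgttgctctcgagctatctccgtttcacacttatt
prp-8 (chrIII:8164020-8164120): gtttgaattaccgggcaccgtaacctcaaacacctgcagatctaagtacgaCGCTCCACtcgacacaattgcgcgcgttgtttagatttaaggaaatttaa
snr-1 (chrIV:17087586-17087686): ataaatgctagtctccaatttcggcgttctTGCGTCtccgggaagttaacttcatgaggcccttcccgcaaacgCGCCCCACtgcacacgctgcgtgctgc
hrpf-2 (chrIV:6376699-6376799): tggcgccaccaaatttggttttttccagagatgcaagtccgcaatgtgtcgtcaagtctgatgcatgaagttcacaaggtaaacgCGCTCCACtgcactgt
rsp-1 and rsp-2 (chrII:11453149-11453249): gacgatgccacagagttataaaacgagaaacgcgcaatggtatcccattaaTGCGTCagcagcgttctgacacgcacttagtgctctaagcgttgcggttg
rsp-3 (chrIII:12688161-12688261): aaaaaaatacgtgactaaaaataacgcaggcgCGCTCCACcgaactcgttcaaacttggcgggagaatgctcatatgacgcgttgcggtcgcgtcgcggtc
prp-21 (chrII:484520-484620): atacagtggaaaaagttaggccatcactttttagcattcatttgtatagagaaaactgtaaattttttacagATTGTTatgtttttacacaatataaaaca

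The octamer CGCNCCAC was noticed while these sequences were read, so its count here describes the sites and tests nothing. In a search of either strand up to 50 bp from each summit, it lay at 6 of the 14 sites (42.9%): prp-19, prp-40, prp-8, snr-1, hrpf-2 and rsp-3. It lay at 3.01% of all optimal sites, at 4.11% of the 1289 promoter sites of no member, and in 0.531% of windows of the same length centred 250 bp upstream of all protein-coding 5′ ends. Its centre lay 4.5 to 38.5 bp from the summit. It read in the direction of the named gene at all 6, but each of these sites also had a gene of the opposite strand in its window, which was the nearer one at prp-19, snr-1 and rsp-3. It lay in none of the 28 windows centred 300 bp to either side of the 14 summits. At a share of 0.531%, 28 windows would rarely hold it, so this count cannot show that it is placed at the summits. It was found at 0 of 29 sites of listed splicing genes outside the 39, which played no part in choosing it. None of these sites was shared with a member, and a count of 0 in 29 allows a share of up to 10.3%. The octamer lay at 2 of 14 weaker regions of members that had no optimal site.

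Of the 9 other sequences searched, GACGCA was the most frequent at these sites. It lay at 6 of the 14 sites (42.9%), those of prp-40, rsp-6, snr-1, snr-6, rsp-7 and the rsp-1 and rsp-2 pair, against 15.3% of all optimal sites and 3.06% of the windows 250 bp upstream of all 5′ ends. Of the 29 sites of other listed splicing genes 5 had it (17.2%), which is close to the share of all optimal sites. At 10 of the 14 sites GACGCA or the octamer was present, against 17.6% of all optimal sites and 20.9% of the 1289 promoter sites of no member. At the sites of other listed splicing genes it was 5 of 29 (17.2%). The octamer was chosen from the 14 sites, so the count of 10 describes them and tests nothing. Of the 10, prp-40 and snr-1 had both. The 4 sites with neither were both sites of snr-4 and those of rnp-2 and prp-21.

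The other sequences each lay at 2 or fewer of the 14 sites. GAGAGA, found at 25.4% of all optimal sites, lay at 0 of the 14, which allows a share of up to 21.4%. CAGCTG lay at 2 (14.3%), the stronger snr-4 site and that of rsp-6, against 3.36% of all optimal sites. At rsp-6 its last letters overlap the TGCGTC there. CCGCCC lay at the prp-19 site only, against 5.32%. AACAAT, the sequence known for SOX HMG boxes, lay at the prp-21 site only, against 6.15% of all optimal sites. Its share was higher, 13.3%, in the windows 250 bp upstream of all 5′ ends. It lay in 4 of the 28 windows centred 300 bp to either side of the 14 summits. The prp-21 window also had the lowest G and C content of the 14, at 25.7%. The E-box CACGTG, at 4.27% of all optimal sites, was not found within 50 bp of the 14 summits. Neither was the CRE-like TGACGT, at 6.50% of all optimal sites. The same held for the GATA-type TGATAA (4.36%) and for the AP-1 type TGACTCA (1.18%). A match of letters is not a bound site, and a missing match says nothing of the factor.

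**Figure D2:**
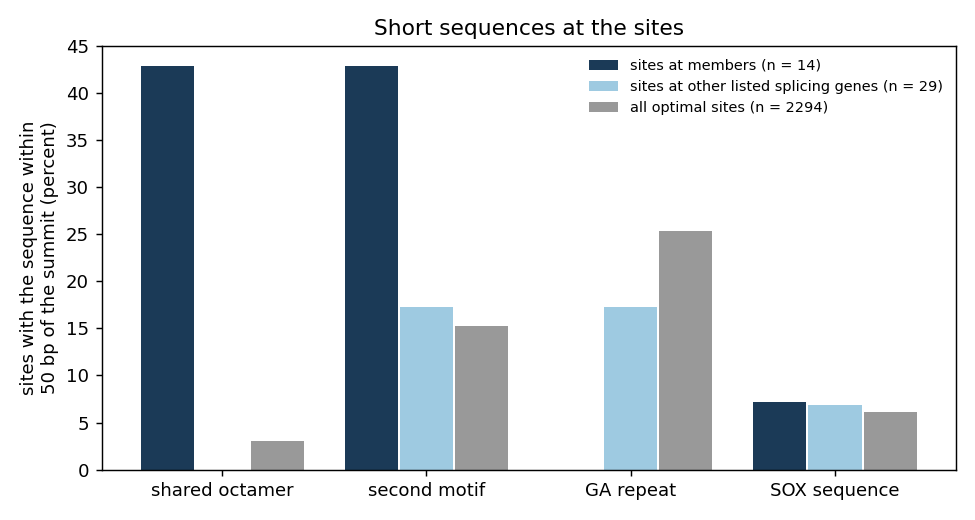
Bars give the percent of sites with a sequence within 50 bp of the summit, at the 14 member sites, at 29 sites of other listed splicing genes and at all 2294 optimal sites. The shared octamer is CGCNCCAC, chosen after these sites were read, the second motif GACGCA, the GA repeat GAGAGA and the SOX sequence AACAAT; the octamer stands at 42.9%, 0 and 3.01%.

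Among the Sm genes, snr-4 had the strongest site of all 39 genes. The gene (WBGene00004917, chrV:11978508-11979723, minus strand) encodes the Sm protein known in human as SmD2. The region chrV:11979961-11980162 had its summit 362 bp upstream and a signal value of 314 in the pooled list (rank 135 of 2294), 200 in replicate 3 (rank 133) and 111 in replicate 4 (rank 150). The ranks in the replicates are close to each other. A neighbouring summit 201 bp away, 563 bp upstream of snr-4, had signal values of 98.5 pooled, 73.0 in replicate 3 (rank 967) and 23.3 in replicate 4 (rank 3157). Its region overlaps the stronger one, so the pair may count overlapping reads. The snRNA gene T11F9.15 lay 33 bp from the stronger summit and 25 bp from the weaker, and the ncRNA gene C52E4.14 spanned the stronger summit, so the site cannot be assigned to snr-4 rather than to these genes. No other protein-coding 5′ end had the summit in its window.

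snr-1 and snr-6, which encode the relatives of human SmD3 and SmE, had sites of middle strength. The snr-1 summit (region chrIV:17087444-17087827) lay 413 bp upstream, with 129 pooled, 108 in replicate 3 (rank 505) and 23.5 in replicate 4 (rank 3122), and snx-13, on the other strand, had its 5′ end closer, at 198 bp. The snr-6 summit (chrIII:12429724-12430107) lay 287 bp upstream, with 89.2 pooled, 61.1 in replicate 3 (rank 1284) and 28.0 in replicate 4 (rank 2163). Y49E10.16, on the other strand, also had this summit in its window, at 593 bp. The snr-6 site stood among the 2294 strongest of both replicates and the snr-1 site in those of replicate 3 only.

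The other Sm genes had no optimal site. snr-2 and snr-3 (relatives of human SmB and SmD1) had pooled regions outside the optimal list with signal values of 46.9 and 58.3. snr-7 (SmG) had 19.6, near the bottom of the 30000 pooled regions, and snr-5 (SmF) had no pooled region in its window. The proteins of a single ring thus came from genes with pooled signal from none to 314.

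The prp sites fell at factors of several stages of splicing. prp-19 (WBGene00020423) encodes a ubiquitin ligase at the core of a complex that acts as the spliceosome is activated. Its site (chrIII:5172578-5172787) had 251 pooled (rank 228), 178 in replicate 3 (rank 173) and 73.9 in replicate 4 (rank 365). This was the second strongest of the 14 sites, but the summit lay 640 bp upstream of prp-19 and only 35 bp upstream of the 5′ end of K10D2.5, with that of emb-1, which encodes a subunit of the anaphase-promoting complex, at 754 bp. With a promoter window of 500 bp prp-19 was the single gene of the 14 to lose its site.

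prp-40 (WBGene00014218), a U1 snRNP-associated factor, had a site 161 bp upstream (chrIII:9521831-9521968) with 143 pooled, 97.6 in replicate 3 (rank 605) and 45.2 in replicate 4 (rank 936). prp-8 (WBGene00004187), the large protein at the catalytic core of the spliceosome, had a site 303 bp upstream (chrIII:8163878-8164261) with 133 pooled, 99.9 in replicate 3 (rank 576) and 42.4 in replicate 4 (rank 1040). Both sites were among the 2294 strongest of each replicate and nearer to the prp gene than to the divergent neighbour, clu-1 at 454 bp and bath-42 at 687 bp. prp-21 (WBGene00004188), the U2 snRNP protein known in human as SF3A1, had the weakest site of the 14 (chrII:484378-484761, 296 bp upstream), with 70.7 pooled and 65.2 in replicate 3 (rank 1157). Replicate 4 had no summit within 100 bp of it, and gldi-1 lay closer, at 192 bp.

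The remaining 9 prp genes had no optimal site. prp-18 (a second-step factor), prp-9 (SF3A3 in human, a partner of the prp-21 protein), and prp-38 had pooled regions with 55.1, 45.6 and 35.5, and prp-31 one at rank 19741. prp-3, prp-4, prp-6, prp-17 and prp-39 had none in their windows. Thus, among the prp genes, U4/U6 and U5 snRNP factors were found with a site (prp-8) and without (prp-3, prp-4, prp-6 and prp-31).

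The SR protein genes had sites in 5 of 8 cases, with rsp-1 and rsp-2 sharing theirs, and in the stronger 50% of sites rsp-6 alone kept one. rsp-6 (WBGene00004703) had the strongest, 128 bp upstream (chrIV:7791165-7791548), with 136 pooled, 81.1 in replicate 3 (rank 805) and 57.8 in replicate 4 (rank 597), and no other protein-coding gene had the summit in its window. rsp-1 and rsp-2 (WBGene00004698 and WBGene00004699) are divergent neighbours 406 bp apart. Their common site (chrII:11453007-11453390) lay 163 bp upstream of rsp-1 and 244 bp upstream of rsp-2, with 99.7 pooled, 58.3 in replicate 3 (rank 1387) and 40.5 in replicate 4 (rank 1119). The rsp-6 and rsp-1 and rsp-2 sites stood among the strongest of both replicates.

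rsp-3, whose protein is the worm relative of human SF2/ASF, had a site 289 bp upstream (chrIII:12688019-12688402) with 95.4 pooled and 76.9 in replicate 3 (rank 877). In replicate 4 the same place had 13.2, at rank 14456, far below its rank in replicate 3, and spin-4 lay closer, at 107 bp. rsp-7 had a site 281 bp upstream (chrII:10658733-10659116) with 71.5 pooled, 38.2 in replicate 3 (rank 2656) and 18.5 in replicate 4 (rank 5522). This site was outside the 2294 strongest regions of both replicates. It was shared with snu-13, a U4/U6 snRNP protein gene on the other strand at 299 bp, and lay within the ncRNA gene M28.13.

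Of the rsp genes without an optimal site, rsp-8 came closest, with a pooled region of 59.9 at rank 2589, 603 bp upstream. The weakest optimal region of all had 65.3, so prp-21 (70.7) and rsp-7 (71.5) lay just inside the list and rsp-8 just outside. rsp-5 and snr-3 repeated the arrangement of rsp-1 and rsp-2: they are divergent neighbours 403 bp apart and shared a pooled region with 58.3. In replicate 4 it had 34.1 at rank 1493, within the strongest 2294, but in replicate 3 it had 18.9 at rank 11359. rsp-4, whose protein is related to human SC35, had 22.5 at rank 20663.

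**Figure D3:**
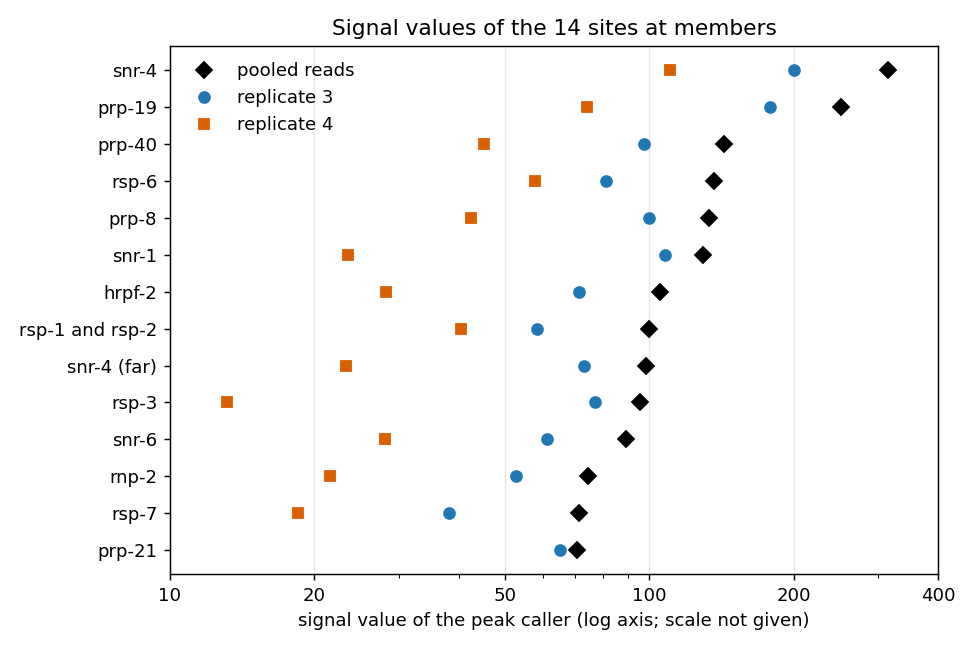
Points give the peak caller's signal value (log axis) of the 14 sites in the pooled list, replicate 3 and replicate 4, ordered by pooled value; "far" marks the second snr-4 summit, 563 bp upstream. Replicate 4 lies below replicate 3 at each site with both values, and prp-21 has no replicate 4 point.

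The hrpf genes differed in how the replicates met. hrpf-2 (WBGene00022253) had a site 226 bp upstream (chrIV:6376557-6376940) with 105 pooled, 71.2 in replicate 3 (rank 1011) and 28.3 in replicate 4 (rank 2130), in a divergent promoter with the cuticle collagen gene bli-6 at 316 bp. hrpf-1 had no optimal site, although a region in its window stood among the 2294 strongest of each replicate. These were different places: the replicate 3 region (46.1, rank 1984) lay 248 bp upstream and the replicate 4 region (32.9, rank 1603) 837 bp upstream. The pooled list held a region at each place, with 54.4 at 241 bp and 50.8 at 835 bp.

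rnp-2 was the only rnp gene with a site. It encodes a U1 and U2 snRNP protein, and the summit (chrIV:4171752-4172135) lay 132 bp upstream with 74.3 pooled, 52.7 in replicate 3 (rank 1642) and 21.5 in replicate 4 (rank 3774). K08D10.13, on the other strand, also had the summit in its window, at 363 bp. rnp-3, which encodes a related snRNP protein, begins 72 bp after rnp-2 ends, on the same strand, and had no pooled region of its own. Of the other rnp genes, rnp-6 (the relative of human PUF60) had a pooled region with 43.3 and rnp-8 one with 19.9. rnp-1, rnp-4 (Y14 of the exon junction complex), rnp-5, rnp-7 (the U1 snRNP 70K protein) and rnp-9 had none in their windows.

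**Figure D4:**
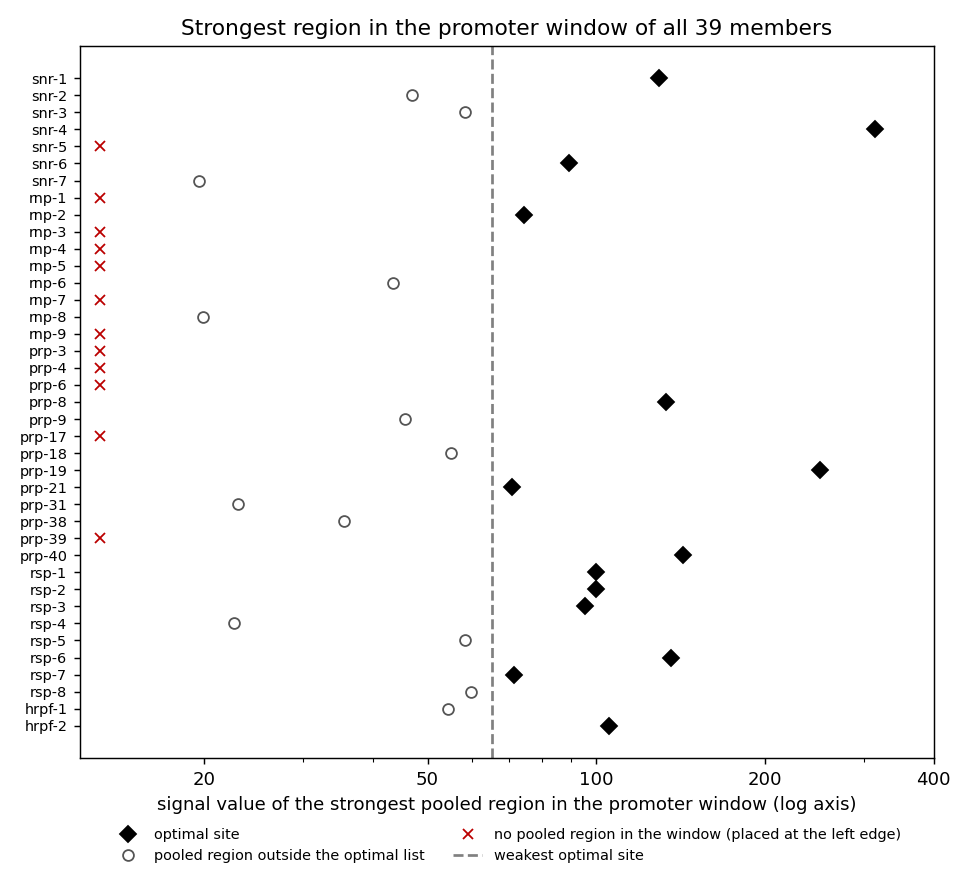
Each row is a gene and each point the signal value (log axis) of the strongest pooled region in its promoter window: filled for optimal sites, open for regions outside the optimal list, crosses for genes with no pooled region. The dashed line is the weakest optimal region at 65.3, and 6 of the 12 crosses are rnp genes.

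Replicate 3 gave these sites more signal than replicate 4. The log2 ratio of the signal values, replicate 3 over replicate 4, ran from 0.49 to 2.54 with a median of 1.24 at the 13 sites with both, against a median of 0.76 at 2146 optimal sites. The scales of the lists are not known to match, so ranks are given beside them. The median rank was 922 in replicate 3, over all 14 sites, and 2130 in replicate 4, over the 13 sites it held. Of the 14 sites 8 stood among the 2294 strongest regions of both replicates, against 64.8% of all optimal sites. When only such doubly strong sites were counted, 9 of the 39 genes (23.1%) kept a site, against 5.94% of all genes, and prp-21, rnp-2, rsp-3, rsp-7 and snr-1 lost theirs. The 2294 strongest regions of replicate 4 alone (without replicate 3) gave 12 members with a site, against 7.96% of all genes, and those of replicate 3 alone (without replicate 4) gave 14, against 8.24%.

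**Figure D5:**
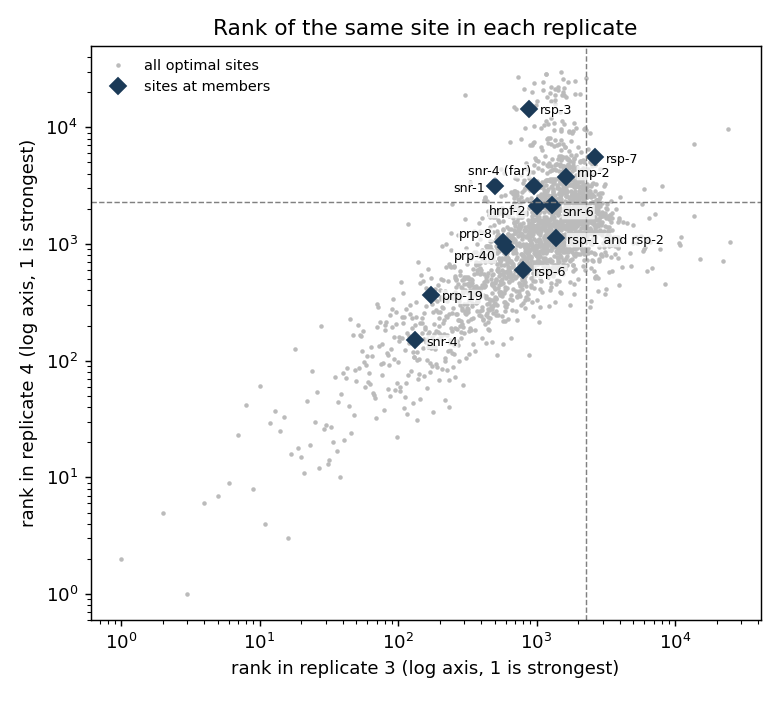
Each point is an optimal site with its rank in replicate 3 (horizontal) and replicate 4 (vertical), both on log axes with 1 the strongest; diamonds are the sites at members and dashed lines mark rank 2294. rsp-3 lies far above the others at rank 14456 in replicate 4, and prp-21 is not drawn because replicate 4 had no summit there.

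Most sites lay in divergent promoters. At 12 of the 14 genes with a site (85.7%) the nearest upstream protein-coding gene ran the other way, against 15 of the 25 members without a site (60.0%), 66.7% of all genes with a site and 45.4% of all genes. At 10 of the 14 sites a gene outside the 39 also had the summit in its window, and at 4 of these that gene's 5′ end was the nearer one (K10D2.5, snx-13, spin-4 and gldi-1). Of all 1303 optimal sites in promoter windows, 864 had the summit in the window of 1 gene only. The lists do not show which gene of such a pair a site belongs to.

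Several members without a site stood downstream of a gene that had one. In C. elegans, close genes on the same strand are often transcribed together as operons, and runs of same-strand genes with gaps of up to 500 bp were used to describe this, a choice made after seeing the data; the annotation used does not mark operons. Of the 39 genes 7 were not the first of their run, and 6 of these had no site of their own. For 5 of the 6 the first gene of the run had an optimal site, against 16.7% of the 3344 such genes genome-wide. rnp-3 followed rnp-2. rnp-7 followed syf-2, a spliceosome gene whose site had a signal value of 204, 395 bp upstream. prp-38 followed plrg-1, which encodes a partner of the prp-19 protein, with 160 at 215 bp. prp-39 followed hmgs-1, a mevalonate pathway gene, with 149 at 153 bp, and prp-3 followed smrd-1 with 121 at 245 bp. The sixth, rnp-4, followed snfc-5, which had none. Counting these genes gave 19 of 39 (48.7%), against 11.2% of all genes.

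Counts depended on which regions were taken as sites. The stronger 50% of optimal sites gave 7 of the 39 genes, against 5.07% of all genes. A window from 500 bp upstream gave 13, against 6.7%, and one from 2000 bp upstream 17, against 10.9%. Of the 39 genes 27 (69.2%) had a region of the full pooled list in the window, against 42.9% of all genes. In gene bodies the members' count was 0 with the stronger 50% of sites (0.821% of all genes), with sites strong in both replicates (1.15%), without replicate 3 (1.88%) and without replicate 4 (1.83%). With all pooled regions it was 13, against 36.9% of all genes. Among genes with a pooled region in the promoter window, 51.9% of the members and 19.6% of all genes had an optimal site there. The 13 members with only a weaker region in that window are a different set from the 13 with body regions. Their promoter regions had signal values from 19.6 to 59.9, with a median of 45.6.

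Other genes were counted from a list of 98 names drawn up for splicing and RNA processing, of which 92 were in the annotation. Sites lay at 29 of the 92 (31.5%), against 8.42% of all genes, a share near the 35.9% of the 39 genes. These genes include snu-13, whose site is that of rsp-7. The motif counts above left out sites shared with members, so their 29 sites are a different count. Catalytic and helicase factors had 10 of 28, hnRNP-like and tissue-specific regulators 10 of 26, and U2 and branch point factors 3 of 11. LSm genes had 2 of 8, exon junction and export genes 1 of 6, and snRNP assembly and cap-binding genes 0 of 6. The group listed as SR kinase and SR-like had 3 of 7. Those without a site include tra-2, which was listed by its name and in C. elegans is not an SR-like gene. Among the strongest sites were those of mog-4, a DEAH-box helicase (379), and sqd-1, an hnRNP-like gene (377). Those of teg-1 (212), syf-2 (204), the SR protein kinase gene spk-1 (186), smu-1 (173) and hrpa-1, an hnRNP A1 relative (164), were weaker. Of the signal values given, those of mog-4 and sqd-1 exceed the 314 of snr-4, the highest among the 39 genes.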

How the data were processed

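Per the deposited file descriptions, the region lists are narrowPeak files. Each replicate and the pool have a list of 30000 regions that include background, and an optimal list holds 2294 regions after an IDR (reproducibility) threshold. Lists exist on 2 builds, and those on ce11 were used. The signal value of each region and its −log10 q value are the authors' own, as deposited by the peak caller. Caller, aligner and threshold: not given in the sources used here. Each optimal region matched a pooled region exactly, and 1134 of the 2294 were tied at the highest −log10 q value (3.36), so regions were ranked by signal value. The weakest optimal signal value was 65.296 and the highest pooled one outside the list 65.286, so the list holds the 2294 strongest pooled regions.

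Genes and 5′ ends came from Ensembl release 115 (WBcel235, which is ce11), by gene identifier. A replicate supported a site with a summit within 100 bp. Motifs were searched on both strands. Gene assignment was tested on simulated data. Python 3.11.15, NumPy 2.4.6, pandas 2.3.3 and matplotlib 3.10.9 were used. No test was run, since there is 1 group. Limits from counts of 0 take 3 counts and cover counting only.

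The members and lists were chosen with earlier results of these data known. All members with a site were described, and of the other listed genes those among the 8 with the strongest sites, 1 of which is not reported here. Alternatives covered the window, gene assignment, site list, replicates, support distance and motif window. Added after seeing the data were the octamer, same-strand runs, counting distinct sites and the nearest or sole gene.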

Additional observations from a re-analysis of the deposited data

How the results depend on the processing

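The count of 14 genes with a promoter site moved by more than 1.5 times under 5 alternatives: 9 with the nearest 5′ end, 9 with sites strong in each replicate, 7 in the stronger 50% of sites (against 5.07% of all genes), 27 with all pooled regions, and 9 with the nearest or sole gene in the window, an alternative added after seeing the data. It was 13 with a 500 bp window, 17 with a 2000 bp window (gaining rnp-1, rnp-7 and rsp-4) and 19 with the first gene of a run counted, also added later. With 1 replicate alone it ran from 12 (without replicate 3, against 7.96% of all genes) to 14 (without replicate 4). The 12 included hrpf-1, rsp-5 and snr-3 and lacked 5 of the 14. The count of genes with a body site stayed at 0 in each site list except all pooled regions, where it was 13, against 36.9% of all genes. The 8 sites in the top of both replicates stayed within 1.5 times with support distances of 50 and 200 bp. The octamer, chosen from these sites, lay at 4 of them within 25 bp of the summit, against 1.83% of all optimal sites. Within 100 bp it lay at 7, against 4.18%. AACAAT lay at 0 within 25 bp, against 2.18% of all optimal sites. Within 100 bp GAGAGA lay at 1 (snr-6), against 38.5%, and TGATAA at 1 (snr-6), against 10.6%. The causes were not tested. Unknown read depth limits the statements on weak or missing regions, and a pair of genes at a common site is 1 observation.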
